A study of Mus musculus with 2 samples.

Results

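The Schlafen genes of the mouse are a cluster of related genes on chromosome 11, and 7 of them were described here: Slfn1, Slfn2, Slfn3, Slfn4, Slfn5, Slfn8 and Slfn9. They were taken by symbol from the gene tables of the count files, where they are 7 of 32432 genes. No cut on a measured value was used, but the choice was made with earlier results of these data known. All 7 were detected, with 904 UMIs (unique molecular identifiers, 1 per captured transcript) for Slfn3 over all kept cells, 6262 for Slfn9, 23585 for Slfn8, 37824 for Slfn4, 61729 for Slfn1, 86625 for Slfn5 and 170507 for Slfn2. Slfn14 and Slfnl1, related genes that were not members, had 0 UMIs in 22051 kept cells, which allows up to 0.0136% of cells with a UMI.

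The cells were leukocytes from B16-F10 tumours, a mouse melanoma line grown in the skin, profiled by droplet single-cell sequencing of 3′ transcript ends. The host mice were males of 8 to 12 weeks that all carried one R26CreERT2 allele, a tamoxifen-inducible Cre recombinase driven by the broadly active Rosa26 promoter, so that recombination was not limited to one cell type. The iKO group had both Trex1 alleles floxed (Trex1 fl/fl) and the control group had one (Trex1 fl/wt), so controls can lose one copy and are not wild type. Trex1 encodes a DNA exonuclease that degrades DNA in the cytosol. Both groups received B16-F10 cells in Matrigel in the skin of both legs and, from day 5, tamoxifen at 1 mg on each of 3 days. Harvest was on day 14, when CD45+ cells were enriched on beads and sorted as live cells. The labels name the cells lymphocytes, but the gates below found myeloid cells in every sample. Each genotype was run as 1 pool of 4 hashtagged samples, called iKO 1 to iKO 4 and control 1 to control 4 here. An effect of the genotype and one of the pool cannot be told apart. The labels do not say whether a hashtagged sample is 1 mouse, and p-values measure only the spread between these samples.

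Schlafen proteins take their name from the German word for sleep, after the growth arrest that the first member caused when it was expressed in thymocytes. Many of them are induced by type I interferon, and family members have been found to bind or cleave transfer RNA. The short members are Slfn1 and Slfn2, and Slfn2 is needed to keep T cells and monocytes quiescent. The intermediate members are Slfn3 and Slfn4, and Slfn4 is known from immature and suppressive myeloid cells. The long members Slfn5, Slfn8 and Slfn9 add a helicase-like domain.

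The genes lie in the order Slfn5, Slfn9, Slfn8, Slfn2, Slfn1, Slfn4, Slfn3 in the cluster. All 7 had an entry in the RefSeq promoter table (build GRCm38.p6, 250 bases before to 50 bases after the start of the gene). Slfn8 had 2 entries, and only the first was used here. Windows of these promoters are shown because the long and the shorter members carried different letters, while members of both kinds differed between the genotypes. The long members held GAAA, any 2 bases and GAAA again, the core of the interferon-stimulated response element, on one strand or the other. The windows lie at chr11:82951902-82952001 on the plus strand for Slfn5, chr11:82991831-82991920 on the minus strand for Slfn9 and chr11:83020811-83020903 on the minus strand for Slfn8. They read 5′ to 3′ on the strand of the gene, and capitals mark the match, which stands as its reverse complement in Slfn9 and Slfn8.
Slfn5: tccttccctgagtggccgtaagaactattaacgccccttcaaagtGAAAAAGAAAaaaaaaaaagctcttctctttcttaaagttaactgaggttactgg
Slfn9: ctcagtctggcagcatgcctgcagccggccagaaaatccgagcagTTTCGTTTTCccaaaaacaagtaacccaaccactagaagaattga
Slfn8: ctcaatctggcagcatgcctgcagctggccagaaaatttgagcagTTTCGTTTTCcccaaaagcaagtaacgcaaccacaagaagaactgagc
The matches ended 145 bases before the start of Slfn5, 38 bases before that of Slfn8 and 35 bases before that of Slfn9. The Slfn8 and Slfn9 promoters shared an unbroken run of 20 bases. This pattern, searched on both strands, was in 3 of the 7 members and in 3.49% of all 27025 promoters of this length. TTCNNNGAA, the core of the gamma-activated site, was in 0 of the 7 and in 8.47% of all promoters.

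Slfn2, Slfn1, Slfn4 and Slfn3 shared the run ACTTCCTGG, which was found by comparing the members' promoters with each other. Their windows lie on the plus strand at chr11:83065012-83065110 for Slfn2, chr11:83116701-83116799 for Slfn1, chr11:83175068-83175166 for Slfn4 and chr11:83191243-83191329 for Slfn3, with the shared run in capitals.
Slfn2: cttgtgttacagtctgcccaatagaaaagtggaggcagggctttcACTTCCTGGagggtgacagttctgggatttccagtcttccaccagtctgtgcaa
Slfn1: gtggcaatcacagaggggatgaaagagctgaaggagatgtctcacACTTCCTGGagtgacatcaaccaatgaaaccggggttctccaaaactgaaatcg
Slfn4: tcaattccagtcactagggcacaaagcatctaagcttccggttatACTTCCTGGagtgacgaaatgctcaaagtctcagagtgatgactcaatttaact
Slfn3: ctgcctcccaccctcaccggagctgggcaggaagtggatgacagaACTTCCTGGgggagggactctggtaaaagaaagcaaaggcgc
The run was in 0.888% of all promoters and ended 46, 65, 64 and 33 bases before the start of Slfn2, Slfn1, Slfn4 and Slfn3. The Slfn1 and Slfn4 promoters shared 15 bases without a break, around this run. A match is a description of the letters and not a measured binding site.

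Kept cells had a median of 12994.5 to 14490.5 UMIs in the iKO samples and 6406 to 11834.5 in the controls. Trex1 had 2 UMIs in control 2 and 0 in the other samples, so its 3′ tags check nothing about the genotype. Cells were put into classes by marker gates, which placed 18645 of 22051 kept cells. Of the monocytes/macrophages, 944 lay within 1 marker of the limit of their gate. Neutrophils were 1.11 to 5.23% of kept cells in the iKO samples and 8.80 to 17.8% in the controls. CD8 T cells were 9.93 to 42.0% and 4.86 to 21.3%, and the 2 deepest iKO samples, iKO 1 and iKO 2, held the most. Because of these shifts the genotypes were compared within classes, with UMIs summed per sample and class and given as CPM, the UMIs of a gene scaled to a fixed total of that class profile in that sample. The files count 3′ ends and the values were not scaled by transcript length, so levels were compared within a gene and not between genes.

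Across the classes the 7 genes fell into several patterns, given here as the mean of each genotype because both the levels and the number of usable samples differed between them (± SD, n = 4 per genotype where not stated otherwise). Slfn1 and Slfn4 had their highest means in neutrophils in both genotypes. Slfn1 was there at 512 ± 113 CPM in control and 825 ± 90.8 CPM in iKO samples, followed in both genotypes by monocytes/macrophages (144 and 352 CPM) and conventional CD4 T cells (134 and 333 CPM), and B cells were at 13.8 and 55.4 CPM. Slfn4 in neutrophils was at 358 ± 98.9 CPM in control and 1078 ± 201 CPM in iKO samples, and in monocytes/macrophages at 37.1 and 280 CPM. In the other 9 classes the Slfn4 mean was between 0.579 and 7.1 CPM in controls and between 9.47 and 40.1 CPM in iKO samples. These ranges include 1 control of plasmacytoid dendritic cells (pDC) and 2 controls of type 1 dendritic cells (cDC1).

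Slfn2 was found in both lineages, at 697 ± 128 CPM in control and 1122 ± 164 CPM in iKO samples in neutrophils, 546 and 908 CPM in monocytes/macrophages, 453 and 737 CPM in type 2 dendritic cells (cDC2), 444 and 611 CPM in CD4 T cells and 207 and 257 CPM in CD8 T cells. Slfn5 had its highest mean in monocytes/macrophages in both genotypes, at 208 ± 60.4 CPM in control and 615 ± 165 CPM in iKO samples. The order below it differed: cDC2 came next in controls (179 CPM, against 138 in neutrophils) and neutrophils in iKO samples (548 CPM, against 391 in cDC2). CD8 T cells had the lowest Slfn5 mean in both, at 14.9 and 30.5 CPM. Slfn8 and Slfn9 had their highest means in regulatory T cells (Treg) in both genotypes: Slfn8 at 62.9 ± 33.2 CPM in control and 133 ± 34.3 CPM in iKO samples, and Slfn9 at 24.5 ± 6.70 CPM in control and 36.0 ± 8.42 CPM in iKO samples. In control Treg, Slfn8 ranged from 37.0 to 111 CPM. Its median there was 51.8 CPM, below that of control B cells (63.7 CPM). Monocytes/macrophages came second for both genes in iKO samples, at 125 CPM of Slfn8 and 35.1 CPM of Slfn9. In controls 4 classes lay above monocytes/macrophages, which were at 45.4 and 9.03 CPM, below B cells for Slfn8 (58.7 CPM) and below CD4 and CD8 T cells for Slfn9 (15.5 and 12.2 CPM). Slfn3 was near the limit of detection, at 2.83 and 6.60 CPM in CD4 T cells, 4.38 and 4.58 CPM in Treg and 0.519 and 0.303 CPM in neutrophils, and its 0 UMIs in 150 pDC allow up to 1.53 CPM.

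Neighbouring classes, ordered by the average of both genotype means, were compared within samples by a two-sided exact paired permutation test. Neutrophils were above monocytes/macrophages in 8 of 8 samples for Slfn1, Slfn2 and Slfn4, with p = 0.00781, the smallest this exact test can give, and 0.109 after Benjamini-Hochberg adjustment over 70 pairs. At this number of pairs a result at that smallest p passes only where at least 11 pairs reach it, and 5 did. The adjusted test therefore says little about any of these orders.

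**Figure D1:**
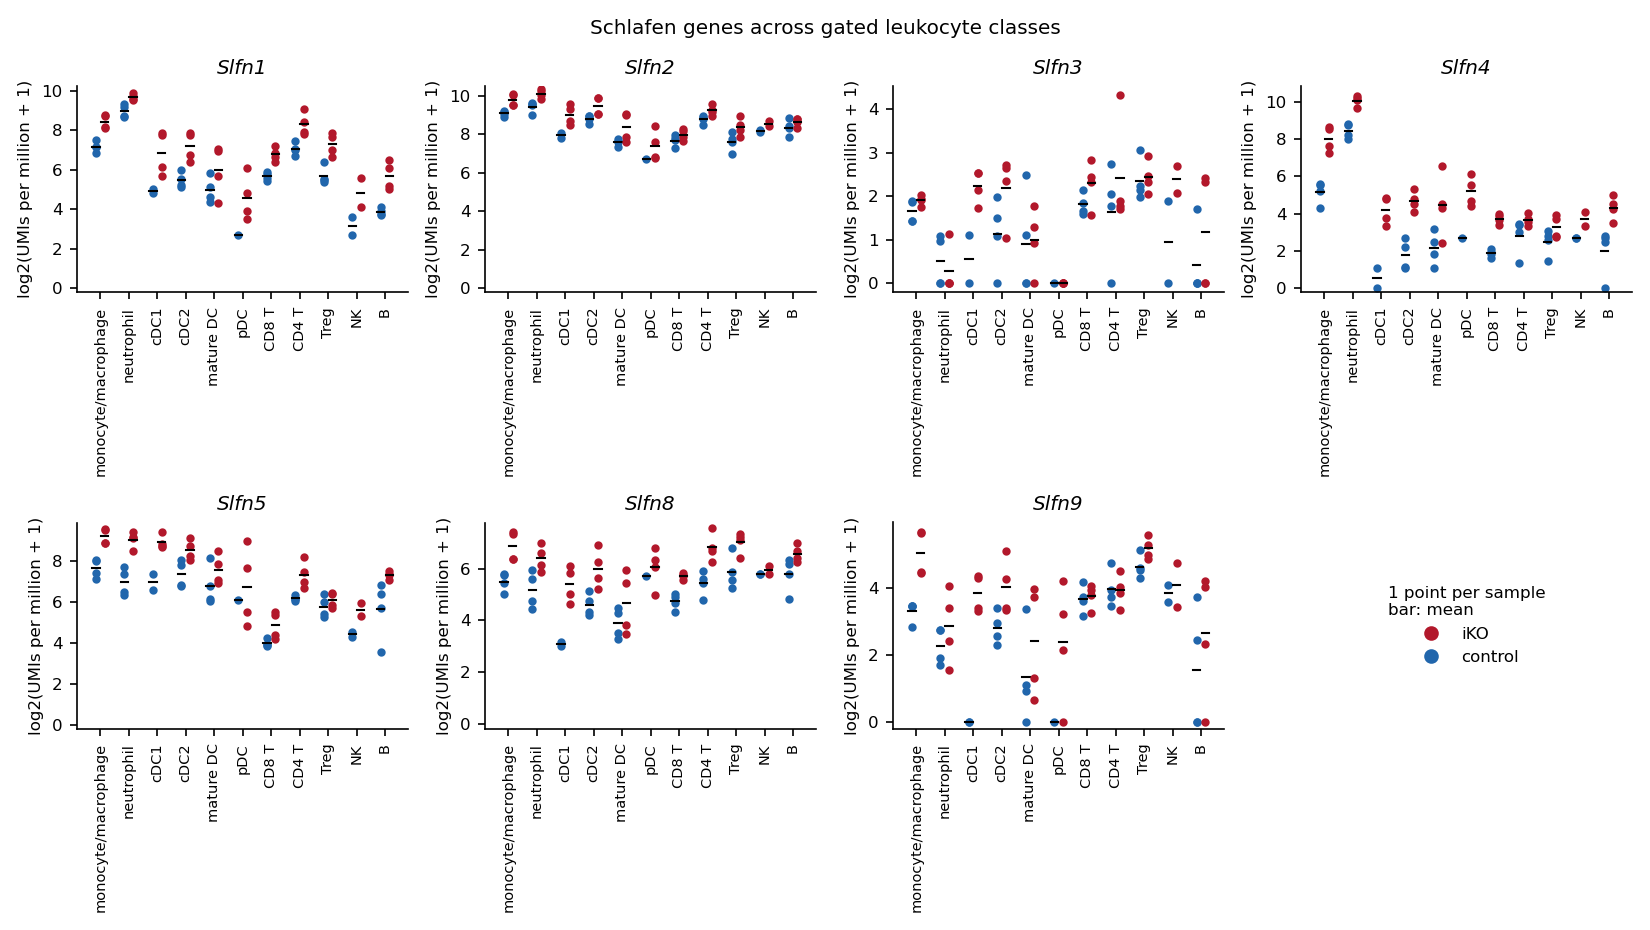
Level of each Schlafen gene by leukocyte class, as log2(CPM + 1) of the class profile, 1 point per sample with at least 20 cells of the class, iKO and control in separate colours. Slfn4 stands out in neutrophils and monocytes/macrophages, Slfn5 in myeloid classes, and Slfn8 and Slfn9 have their highest means in Treg.

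Over whole samples, 6 of the 7 genes were higher in the iKO tumours in edgeR's quasi-likelihood test with Benjamini-Hochberg adjustment over all genes, where 1.72% of 13460 tested genes were called higher. Every iKO sample was above every control for all 7, a pattern found in 7.04% of tested genes. The summed family level was 789 ± 41.8 CPM (SD, n = 4) in controls and 1493 ± 89.3 CPM in iKO samples. In such whole-sample values, fewer cells of a type and less RNA per cell cannot be told apart.

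The largest difference was that of Slfn4, at 41.4, 54.0, 36.3 and 29.2 CPM in controls 1 to 4 and 177, 170, 132 and 151 CPM in iKO 1 to 4 (log2 fold change 1.97 ± 0.18 SE, adjusted p = 0.00162). Slfn5 followed, with 121 to 164 CPM in the controls and 322 to 391 in the iKO samples (1.35 ± 0.10, adjusted p = 0.000739). Slfn5os, on the opposite strand, overlaps 559 of the 6326 exonic bases of Slfn5 and had 16 UMIs in all. Neutrophils were a smaller share of the iKO cells (above), while monocytes/macrophages were 34.9 to 51.6% of kept cells in iKO samples and 22.2 to 50.6% in controls, with 3 controls below the lowest iKO sample. The part of these shares in the whole-sample differences was not tested. Slfn9 (1.34 ± 0.24, adjusted p = 0.0282), Slfn8 (1.15 ± 0.18, adjusted p = 0.0162), Slfn1 (0.96 ± 0.11, adjusted p = 0.00364) and Slfn2 (0.50 ± 0.08, adjusted p = 0.0136) rose as well. Slfn3 was at 1.63 to 2.31 CPM in controls and 2.69 to 3.83 CPM in iKO samples (0.70 ± 0.18, adjusted p = 0.0850), which did not pass. It passed with DESeq2 (0.72, adjusted p = 0.0130) and with cells thinned to 2000 UMIs (1.49, adjusted p = 0.0395). Single samples decided 3 of these calls. Slfn2 did not pass without iKO 1 (0.0626), control 2 (0.0570) or control 3 (0.0516), Slfn8 without control 2 (0.0650), and Slfn9 without iKO 1 (0.0770), iKO 2 (0.0706), control 2 (0.0686) or control 3 (0.0836).

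Monocytes/macrophages carried the same 6 differences. In this class 6 of the 7 genes were called higher in iKO, against 5.54% of 11713 tested genes, and in the same 6 every iKO sample was above every control, against 9.78%. The short members are given first. Slfn2, the quiescence factor of T cells and monocytes, was at 581, 538, 587 and 477 CPM in controls 1 to 4 and 1114, 1045, 729 and 745 CPM in iKO 1 to 4 (log2 fold change 0.72 ± 0.17, adjusted p = 0.0315). Slfn1 was at 178, 143, 142 and 113 CPM and at 422, 431, 272 and 284 CPM (1.28 ± 0.21, adjusted p = 0.0104). For both genes iKO 1 and iKO 2 were well above iKO 3 and iKO 4.

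Slfn4, the myeloid member of intermediate length, had the widest gap: 47.4, 45.8, 36.4 and 19.1 CPM in controls 1 to 4 against 372, 402, 152 and 195 CPM in iKO 1 to 4 (2.93 ± 0.41, adjusted p = 0.00639). The lowest iKO sample was still far above the highest control. Slfn3, the other intermediate member, stayed between 1.70 and 3.07 CPM with overlapping groups (0.37, adjusted p = 0.289).

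Among the long members, Slfn5 was at 256, 174, 263 and 141 CPM in controls and 777, 738, 471 and 474 CPM in iKO samples (1.56 ± 0.26, adjusted p = 0.0105). Slfn8 was at 54.2, 42.8, 52.9 and 31.7 CPM and at 164, 172, 82.0 and 82.4 CPM (1.47 ± 0.31, adjusted p = 0.0214). Slfn9 was at 10.0, 10.1, 9.91 and 6.14 CPM and at 48.6, 49.9, 20.6 and 21.3 CPM (2.00 ± 0.37, adjusted p = 0.0148). Again iKO 1 and iKO 2 were the highest, and no control reached an iKO sample.

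The calls of Slfn1, Slfn4, Slfn5 and Slfn9 in monocytes/macrophages held without each of the 8 samples in turn. That of Slfn2 was lost without iKO 1 (0.0791), iKO 2 (0.0901), control 2 (0.0876), control 3 (0.0615) or control 4 (0.0749), and that of Slfn8 without iKO 1 (0.0576), iKO 2 (0.0590), control 2 (0.0695) or control 4 (0.0587). The 14 monocyte/macrophage markers summed to 14779 to 20728 CPM in the controls and 14797 to 17886 CPM in the iKO samples. Neutrophil markers in this class summed to 301 to 454 CPM in controls and 197 to 205 CPM in iKO samples. The lowest control sum was that of control 4, which also had the lowest Slfn4 level. The part of neutrophil RNA in the Slfn4 difference was not tested.

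**Figure D2:**
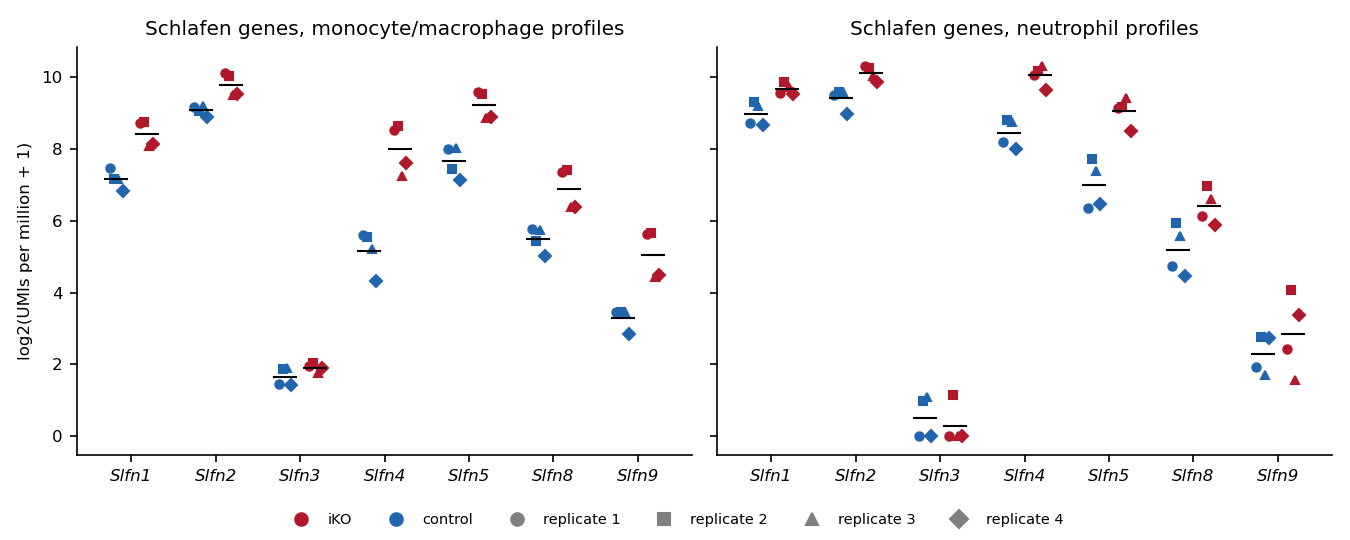
Schlafen levels in monocytes/macrophages and neutrophils, as log2(CPM + 1), 1 point per sample and a bar at the mean of the 4 samples of a genotype. The iKO points of Slfn4 and Slfn5 lie above all control points in both classes, and in monocytes/macrophages iKO 1 and iKO 2 lie above iKO 3 and iKO 4 for each of the 6 called genes.

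The difference also showed in how many cells had a transcript. With each cell thinned to 2000 UMIs, Slfn4 was found in 6.39 ± 1.71% of control and 33.9 ± 10.4% of iKO monocytes/macrophages (SD, n = 4 each), against 22.5 ± 4.06% and 73.1 ± 8.61% without thinning. Slfn1 went from 21.6 ± 2.44% to 46.6 ± 7.67%, Slfn5 from 26.8 ± 6.80% to 57.5 ± 6.81% and Slfn9 from 1.48 ± 0.383% to 6.46 ± 2.39% of thinned cells. Cells with no UMI of any of the 7 genes were 24.3 ± 3.70% in controls and 6.96 ± 4.44% in iKO samples, and the mean number of members found per thinned cell was 1.25 ± 0.135 and 2.45 ± 0.416. In thinned CD8 T cells, whose Slfn4 level was low, the Slfn4 share was 0.892 ± 0.134% and 2.85 ± 0.404%, at unthinned median depths of 8279 to 12731 UMIs in controls and 7921 to 18368 in iKO samples, against 13395.5 to 14996.5 and 14472 to 16486.5 UMIs in monocytes/macrophages. The monocyte/macrophage shares of Slfn4 were above these in both genotypes.

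Within monocytes/macrophages, cells with at least 2 of the monocyte markers Vcan, Chil3, Ccr2 and F13a1 were set against cells with the C1q genes. In the monocyte subset, 305, 164, 305 and 562 cells in controls 1 to 4 and 903, 978, 337 and 671 cells in iKO 1 to 4, 6 members were called higher in iKO against 8.31% of tested genes. Slfn4 was at 26.9 to 58.1 CPM in controls and 212 to 481 CPM in iKO samples (log2 fold change 3.05, adjusted p = 0.00150), Slfn9 at 4.97 to 9.59 and 19.7 to 56.9 CPM (2.34, adjusted p = 0.00983), and Slfn5 at 183 to 275 and 557 to 985 CPM (1.75, adjusted p = 0.00201). None of these groups overlapped, and in 6 members the groups were apart, against 11.6% of genes. Slfn8 (1.58), Slfn1 (1.27) and Slfn2 (0.69) rose too, and the call of Slfn2 was lost without iKO 2 (0.0508). In the C1q subset, of 44 to 52 cells per control and 79 to 227 per iKO sample, no member was called, where 0.0264% of tested genes were called higher, and no member had separate groups, against 3.42%. Slfn4 there was at 14.1, 6.39, 39.7 and 19.3 CPM in controls 1 to 4 and 183, 198, 34.3 and 55.2 CPM in iKO 1 to 4 (2.53, adjusted p = 0.237, unadjusted 0.00357). DESeq2 called Slfn4 in this subset (0.0119), and Slfn1, Slfn4, Slfn5 and Slfn8 had an unadjusted edgeR p under 0.05. iKO 1 and iKO 2 were again high, while iKO 3 was within the control range. Whether the genotype difference itself differed between the subsets was not tested.

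Compared within samples, the level was higher in the monocyte subset than in the C1q subset for Slfn1 (298 ± 147 against 127 ± 98.9 CPM, mean ± SD over 8 samples), Slfn2 (803 against 560 CPM) and Slfn5 (502 against 208 CPM), each in 8 of 8 samples with an exact paired permutation p of 0.00781 and an adjusted p of 0.0273 over 21 such tests. Slfn4 was higher in 7 of 8 (192 against 68.7 CPM, exact permutation, adjusted p = 0.0447). For Slfn9 the order of the 2 means differed between the genotypes, a difference that was not tested. Slfn9 had 57 UMIs in all control C1q cells. It was at 7.87 ± 2.01 CPM in monocytes and 19.6 ± 8.03 CPM in C1q cells of the controls, lower in monocytes in all 4, with ranges that did not overlap (4.97 to 9.59 and 10.2 to 29.6 CPM). In iKO samples it was at 38.3 ± 21.1 and 27.9 ± 6.87 CPM, higher in monocytes in 3 of 4. Over the 8 samples of both genotypes together the Slfn9 comparison did not pass (exact permutation, adjusted p = 0.328).

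**Figure D3:**
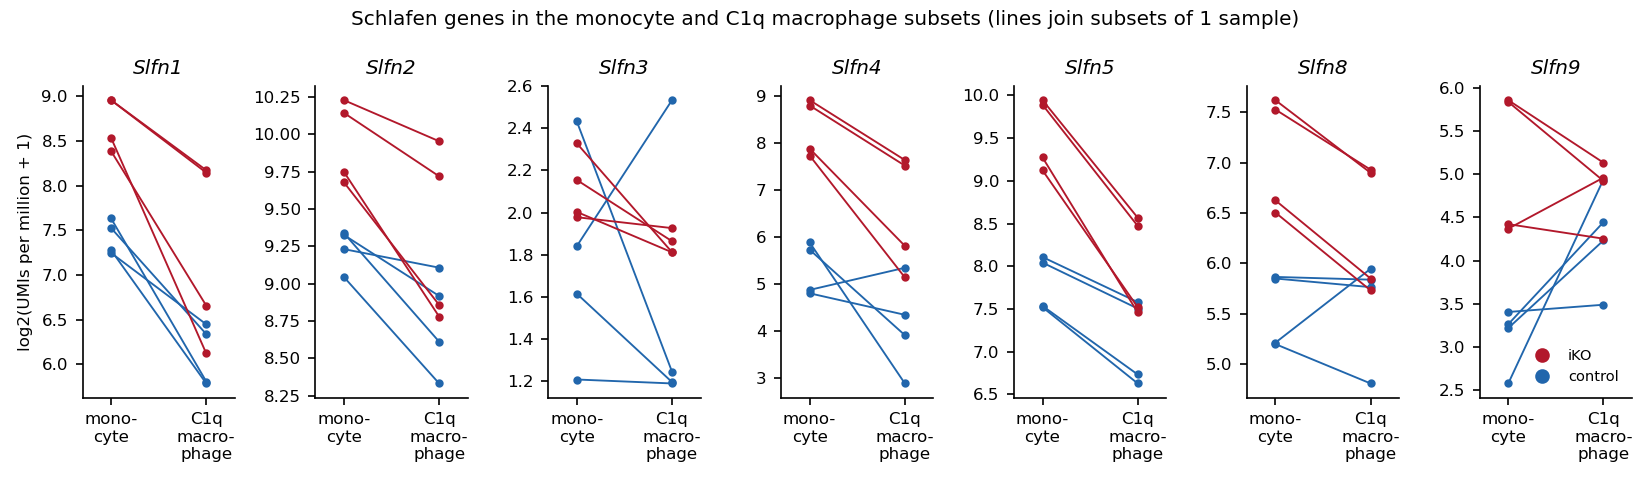
Schlafen levels in the monocyte and C1q macrophage subsets, as log2(CPM + 1), with a line joining the subsets of each of the 8 samples. Lines of Slfn1, Slfn2 and Slfn5 fall from monocyte to C1q cells in 8 of 8 samples.

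In neutrophils, 3 members were called higher in iKO, against 1.88% of 5541 tested genes, and in 4 members every iKO sample was above every control, against 4.44%. Slfn4 was at 292, 450, 435 and 255 CPM in controls 1 to 4 and 1071, 1163, 1276 and 804 CPM in iKO 1 to 4 (log2 fold change 1.80 ± 0.25, adjusted p = 0.00196). Slfn5, low in control neutrophils, was at 81.4, 213, 168 and 88.6 CPM and at 564, 579, 687 and 362 CPM (2.21 ± 0.33, adjusted p = 0.00300). Both groups were apart, and iKO 4 was the lowest iKO sample for each.

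Slfn1 in neutrophils was at 422, 631, 585 and 409 CPM in controls and 760, 938, 858 and 744 CPM in iKO samples (0.89 ± 0.21, adjusted p = 0.0485). Its groups did not overlap, but the call was lost without any 1 of the samples, from 0.0584 without control 2 to 0.207 without control 4. Slfn2 was at 726, 779, 776 and 508 CPM and at 1289, 1224, 1045 and 931 CPM (0.86 ± 0.20), which missed the threshold (adjusted p = 0.0514) and passed with the replicate number as a block (0.0170). Slfn8 was at 20.9 to 60.4 CPM in controls and 57.9 to 126 CPM in iKO samples (1.44 ± 0.35), with overlapping groups (adjusted p = 0.0611, and 0.00144 with the block). Slfn9 was too sparse in neutrophils to be tested, at 2.24 to 5.75 CPM and 1.94 to 15.7 CPM. Scaling to summed UMIs without TMM moved the median log2 fold change of all neutrophil genes to -0.17, and under it Slfn4 was at 1.59 (adjusted p = 0.00483), Slfn5 at 2.00 (0.00717) and Slfn1 at 0.69 (0.162). iKO 1 had 42 neutrophils, the fewest of any sample.

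In cDC2, 2 members were called higher, against 0.653% of 7652 tested genes. Slfn4 was at 1.12, 5.53, 3.57 and 1.23 CPM in controls and 22.1, 38.5, 15.9 and 26.5 CPM in iKO samples (log2 fold change 3.12 ± 0.42, adjusted p = 0.00623). All controls together held 16 UMIs of it, so Slfn4 passed the filter on low counts only through the iKO samples. Slfn1 was at 61.6, 45.04, 36.9 and 33.3 CPM and at 233, 216, 81.5 and 107 CPM (1.86 ± 0.32, adjusted p = 0.0196), and this call was lost without iKO 1 (0.0603), iKO 2 (0.0633), control 2 (0.0842), control 3 (0.0698) or control 4 (0.0857). With the block, Slfn5 (1.15, 0.0239) and Slfn8 (1.41, 0.0392) passed as well, which they did not without it (0.108 and 0.0732). In 4 members of cDC2 every iKO sample was above every control, against 3.82% of genes. The 14 monocyte/macrophage markers stood in cDC2 at 9.06 to 21.1% of their level in monocytes/macrophages of the same sample, and Slfn4 at 2.36 to 13.6%. The part of monocytic RNA in the Slfn4 difference was not tested.

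cDC1 had enough cells in 2 controls and 4 iKO samples and were not tested. Each of the 7 members was higher in the 4 iKO samples than in those 2 controls. With so few controls this pattern is common: 11.9% of the 7226 genes that passed the filter on low counts showed it, and 6 of the 7 members passed that filter, all but Slfn3. Slfn9 had 0 UMIs in 72 control cDC1, which allows up to 1.59 CPM, and was at 18.6, 8.99, 9.60 and 19.6 CPM in iKO 1 to 4, at least 8.93-fold higher with 3 counts over the control group as the floor. Slfn5 was at 168 and 97.3 CPM in control 3 and control 4 and at 412 to 685 CPM in iKO samples. Mature dendritic cells had no called member, against 0.0933% of 6434 tested genes, and no member with separate groups, against 3.5%. Their Slfn1 was at 19.3 to 55.9 CPM in controls and 133, 123, 50.02 and 18.6 CPM in iKO 1 to 4 (1.38, adjusted p = 0.305). Slfn1 in mature dendritic cells passed without iKO 4 (1.74, adjusted p = 0.0294), and Slfn1 and Slfn2 had an unadjusted edgeR p under 0.05 there. DESeq2 called no member in this class.

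In CD8 T cells, 3 members were called higher in iKO against 2.05% of 9422 tested genes, and in 3 members the groups were apart, against 6.39%. Slfn1 was at 42.0, 57.9, 53.6 and 46.5 CPM in controls 1 to 4 and 83.4, 97.4, 148 and 115 CPM in iKO 1 to 4 (log2 fold change 1.15 ± 0.18, adjusted p = 0.00570). Slfn8, a long member, was at 31.1, 29.4, 24.6 and 18.9 CPM and at 46.5, 53.8, 52.2 and 55.8 CPM (0.98 ± 0.14, adjusted p = 0.00399, and 0.0675 with cells thinned to 2000 UMIs). Slfn1 was highest in iKO 3 and iKO 4, the reverse of monocytes/macrophages, while Slfn8 was even over the iKO samples.

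Slfn4 was low in CD8 T cells, at 3.27, 2.04, 2.59 and 2.91 CPM in controls and 9.60, 11.5, 13.5 and 14.5 CPM in iKO samples (2.09 ± 0.23, adjusted p = 0.000888). With 36 UMIs in all controls, Slfn4 passed the filter on low counts only through the iKO samples. It stood at 2.58 to 15.2% of its monocyte/macrophage level in the same sample, and the 14 monocyte/macrophage markers at 1.58 to 2.66%. In iKO 1 and iKO 2 Slfn4 was closest to the markers, at 2.58 and 2.86% against 1.68 and 1.98%. Neutrophil markers in CD8 T cells summed to 277 to 336 CPM in controls and 107 to 128 CPM in iKO samples. The part of free myeloid RNA in the Slfn4 difference was not tested.

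Slfn2 in CD8 T cells was at 153 to 246 CPM in controls and 202 to 306 CPM in iKO samples (0.32, adjusted p = 0.351), and with the block at 0.33 (0.0490). Slfn5 was at 13.2 to 18.1 CPM and 17.6, 19.9, 39.9 and 44.8 CPM (0.95, adjusted p = 0.155, and 0.85 with 0.0184 under the block). Slfn5 in CD8 T cells stood at 2.26 to 10.3% of its monocyte/macrophage level in the same sample, with a median of 7.44%. In iKO 1 and iKO 2 it was at 2.26 and 2.69%, close to the marker shares above. The part of free myeloid RNA in this Slfn5 level was not tested. Slfn9 was at 8.0 to 17.1 CPM in controls and 8.60 to 15.5 CPM in iKO samples (0.16 ± 0.22, adjusted p = 0.765). For Slfn9 the 2 ranges covered the same levels.

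CD8 T cells were divided further by Tcf7, a transcription factor of naive, memory and stem-like T cells, and by Pdcd1, which encodes the PD-1 receptor. Compared within samples, Slfn1 was higher in Tcf7+ cells than in Pdcd1+ Tcf7- cells (144 against 58.7 CPM), as were Slfn2 (317 against 199 CPM) and Slfn8 (56.6 against 32.8 CPM), each in 8 of 8 samples with an exact permutation p adjusted to 0.0273. Slfn9 was higher in Tcf7+ cells in 1 of 8 samples (9.59 against 13.9 CPM, exact permutation, adjusted p = 0.0766). In Tcf7+ cells the Slfn1 level was 119, 117, 66.4 and 63.9 CPM in controls 1 to 4 and 210, 286, 163 and 123 CPM in iKO 1 to 4, so here iKO 1 and iKO 2 were highest. The class-wide order of the iKO samples was thus not that of the Tcf7+ cells.

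In Tcf7+ cells 3 members were called higher in iKO against 1.22% of tested genes. The groups of Slfn1, Slfn4 and Slfn5 were apart. Slfn4 did not pass the filter on low counts, and 4.32% of the genes that did had separate groups. The called genes were Slfn1 (1.06, adjusted p = 0.0371), Slfn5 (1.49, adjusted p = 0.0316) and Slfn8 (0.95, adjusted p = 0.0471). Each of the 3 was lost without iKO 1, iKO 2, control 2, control 3 or control 4, and the highest values were 0.164 for Slfn1 and 0.142 for Slfn5, both without control 3, and 0.210 for Slfn8 without iKO 2. In Pdcd1+ Tcf7- cells 2 members were called against 4.01%. The groups of Slfn1, Slfn4 and Slfn8 were apart. Slfn4 did not pass the filter there either, and 7.45% of the genes that did had separate groups. Slfn1 was at 25.3, 34.2, 31.0 and 28.4 CPM in controls and 71.2, 82.5, 95.9 and 101 CPM in iKO samples (1.58, adjusted p = 7.17e-05), and Slfn8 at 9.94 to 25.7 CPM and 42.6 to 50.6 CPM (1.19, adjusted p = 0.00263). Both held without each sample in turn. In these cells Slfn9 was at 11.4 to 20.3 CPM and 9.64 to 15.6 CPM (0.02, adjusted p = 0.982), and its sign changed under DESeq2 (-0.05), without TMM (-0.03) and with the block (-0.05).

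CD8 T cells with UMIs of both Mki67 and Top2a, genes of dividing cells, were set against those with neither, since Schlafen genes are linked to quiescence. This split was chosen after the data had been seen. In the 7 samples with at least 20 cells of each kind, 4 members were lower in cycling cells in 7 of 7 samples, each with an exact paired permutation p of 0.0156, the smallest this design allows, and an adjusted p of 0.0328. Slfn1 fell from 133 ± 45.7 CPM in non-cycling to 39.0 ± 17.3 CPM in cycling cells (log2 difference -1.80), Slfn5 from 39.5 ± 16.9 to 10.9 ± 4.47 CPM (-1.75), Slfn8 from 58.7 ± 15.3 to 27.2 ± 10.5 CPM (-1.12) and Slfn2 from 317 ± 58.0 to 154 ± 31.2 CPM (-1.05). Slfn9 and Slfn3 went the other way: Slfn9 was at 18.4 ± 4.65 CPM in cycling and 9.22 ± 2.72 CPM in non-cycling cells, and Slfn3 at 5.74 ± 3.39 and 1.92 ± 1.01 CPM. Each was higher in cycling cells in 6 of 7 samples, which did not pass (exact permutation p = 0.0312, adjusted p = 0.0505). Cycling cells held more RNA, with median depths of 18262 to 30614 UMIs in the control samples and 18441 to 25292.5 UMIs in the iKO samples, against 6945 to 11544 UMIs over all samples in non-cycling cells. CPM are shares of that total, and the part of depth in these differences was not tested.

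**Figure D4:**
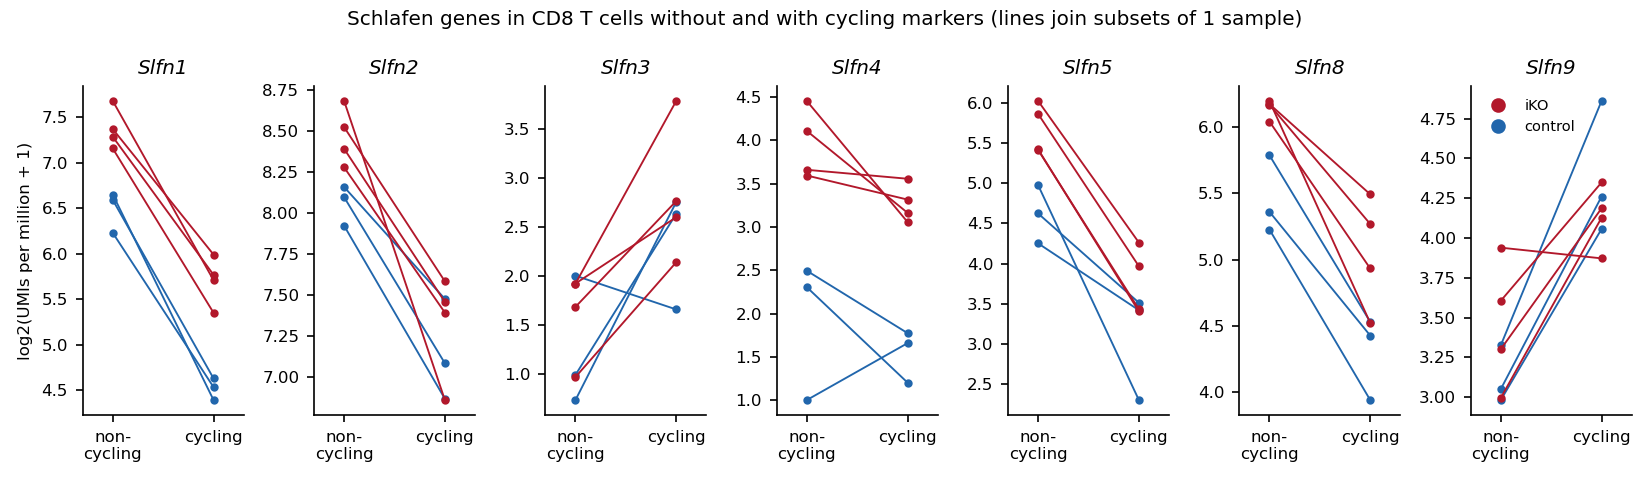
Schlafen levels in CD8 T cells without and with cycling markers, as log2(CPM + 1), with a line joining the subsets of each of the 7 samples. Slfn1, Slfn2, Slfn5 and Slfn8 fall in 7 of 7 samples, and Slfn3 and Slfn9 rise in 6 of 7.

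The genotype difference was seen on both sides of this split. In cycling cells Slfn1 was at 20.0, 23.7 and 22.1 CPM in controls 1 to 3 and 53.4, 62.5, 51.2 and 39.8 CPM in iKO 1 to 4 (log2 fold change 1.39, adjusted p = 0.00148), and it held without each of these 7 samples in turn. Slfn8 rose as well (0.95, adjusted p = 0.0303), so that 2 members were called against 2.63% of tested genes. The groups of Slfn1 and Slfn4 were apart. Slfn4 did not pass the filter on low counts, and 8.26% of the genes that did had separate groups. The Slfn8 call was lost without iKO 1 (0.130), iKO 2 (0.186), control 1 (0.0754), control 2 (0.0687) or control 3 (0.0717). Control 4, with 16 cycling cells, was not used there. In non-cycling cells 4 members were called against 1.21%, and in 5 the groups were apart, against 5.36%. The called genes were Slfn4 (1.95, adjusted p = 0.0282), Slfn5 (0.95, adjusted p = 0.0466), Slfn1 (0.94, adjusted p = 0.0133) and Slfn8 (0.73, adjusted p = 0.0398). Slfn4 had 14 UMIs in all non-cycling control cells and passed the filter only through the iKO samples. Slfn1 in non-cycling cells was lost without control 2 (0.0536), control 3 (0.0763) or control 4 (0.0534), and Slfn4 without iKO 2 (0.0555), control 2 (0.111), control 3 (0.0950) or control 4 (0.0824). Slfn5 and Slfn8 were each lost without iKO 1, iKO 2, iKO 3, control 2, control 3 or control 4, up to 0.148 for both, without control 3.

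In conventional CD4 T cells 3 members were called higher, against 1.85% of 5232 tested genes, and each held without every sample in turn. Slfn1 was at 173, 127, 132 and 103 CPM in controls and 346, 529, 220 and 235 CPM in iKO samples (log2 fold change 1.26 ± 0.23, adjusted p = 0.00490). Slfn5 was at 81.5, 71.3, 69.1 and 66.4 CPM and at 127, 292, 175 and 103 CPM (1.22 ± 0.25, adjusted p = 0.0105). Slfn8 was at 47.2, 42.8, 59.4 and 26.6 CPM and at 111, 188, 103 and 75.4 CPM (1.33 ± 0.26, adjusted p = 0.00725). iKO 2 was the highest sample for all 3 genes, and the groups did not overlap. In 4 members of this class the groups were apart, against 4.03% of genes. The Slfn1 level in CD4 T cells was 81.0 to 123% of that in monocytes/macrophages of the same sample, where the 14 myeloid markers stood at 2.76 to 5.13%. Slfn4 in CD4 T cells stood at 2.91 to 52.2% of its monocyte/macrophage level, with a median of 7.34%. In iKO 1 and iKO 2 it was at 2.91 and 3.00%, below the marker shares of 3.18 and 4.13% there. The part of free myeloid RNA in this Slfn4 level was not tested.

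In Treg, 1 member was called, against 0.953% of 6508 tested genes. Slfn1 was at 83.9, 40.0, 44.1 and 44.4 CPM in controls 1 to 4 and 201, 230, 127 and 97.7 CPM in iKO 1 to 4 (1.63 ± 0.30, adjusted p = 0.0162). Its groups were apart, which 3.27% of genes showed, and the call was lost without iKO 1 (0.0705), iKO 2 (0.0537), control 2 (0.0934) or control 3 (0.0792). Slfn8, which had its highest class mean here, was at 111, 57.8, 45.8 and 37.0 CPM and at 148, 163, 139 and 84.0 CPM (1.06), and passed with the block (0.0288) but not without it (0.0759). It also passed without control 1 (1.41, adjusted p = 0.00306), the control with the highest Slfn8 level, or without iKO 4 (0.0291). Slfn2 in Treg (0.68, adjusted p = 0.193) passed without control 1 (0.0428). Slfn5 (0.37, adjusted p = 0.592) and Slfn9 (0.39, adjusted p = 0.555) did not pass in Treg.

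In B cells Slfn5 was the one called member, against 2.05% of 3023 tested genes, at 115, 84.6, 51.2 and 10.9 CPM in controls and 167, 185, 136 and 160 CPM in iKO samples (1.49 ± 0.28, adjusted p = 0.00158). It held without each sample in turn. The groups of Slfn1, Slfn4 and Slfn5 were apart, and of these only Slfn5 passed the filter on low counts. Among all genes that passed it, 4.6% had separate groups. Slfn1 was too sparse in B cells for the filter, at 12.2 to 16.4 CPM in controls and 32.0 to 87.6 CPM in iKO samples. Slfn8 (0.55, adjusted p = 0.324) and Slfn2 (0.30, adjusted p = 0.448) did not pass. NK cells had 2 samples per genotype and pDC 1 control, and neither was tested. Slfn2 in NK cells was at 281 and 296 CPM in control 1 and control 3 and at 418 and 341 CPM in iKO 1 and iKO 2.

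Over the 8 tested classes, 40 of 56 gene and class pairs passed the filter on low counts. Of these, 19 were called higher in iKO and 0 lower, and the fold change was above 0 in 40 of 40. Over all genes, 2.2% of 55525 such pairs were called higher and 48.9% had a fold change above 0. The filter kept pairs with enough counts in either genotype, and 3 of the 16 pairs it left out had a lower mean in iKO: Slfn9 in CD4 T cells (14.9 against 15.5 CPM), Slfn3 in neutrophils (0.303 against 0.519 CPM) and Slfn3 in mature dendritic cells (1.21 against 1.46 CPM). Slfn1 was called in 6 of 7 tested classes, Slfn4 in 4 of 4, Slfn5 in 4 of 8, Slfn8 in 3 of 8, Slfn9 in 1 of 4, Slfn2 in 1 of 8 and Slfn3 in 0 of 1. In cDC2 and CD8 T cells Slfn4 passed the filter only through the iKO samples, with 16 and 36 UMIs in all controls. The 4 of 4 for Slfn4 is therefore not an independent count. For these 40 pairs the sign turned in no class fit of any setting. Slfn9 in CD4 T cells, which the filter left out, was at -0.15 without the filter. Of the 19 calls, 14 held in all 8 fits that left out 1 sample, and 10 held in every setting tried.

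**Figure D5:**
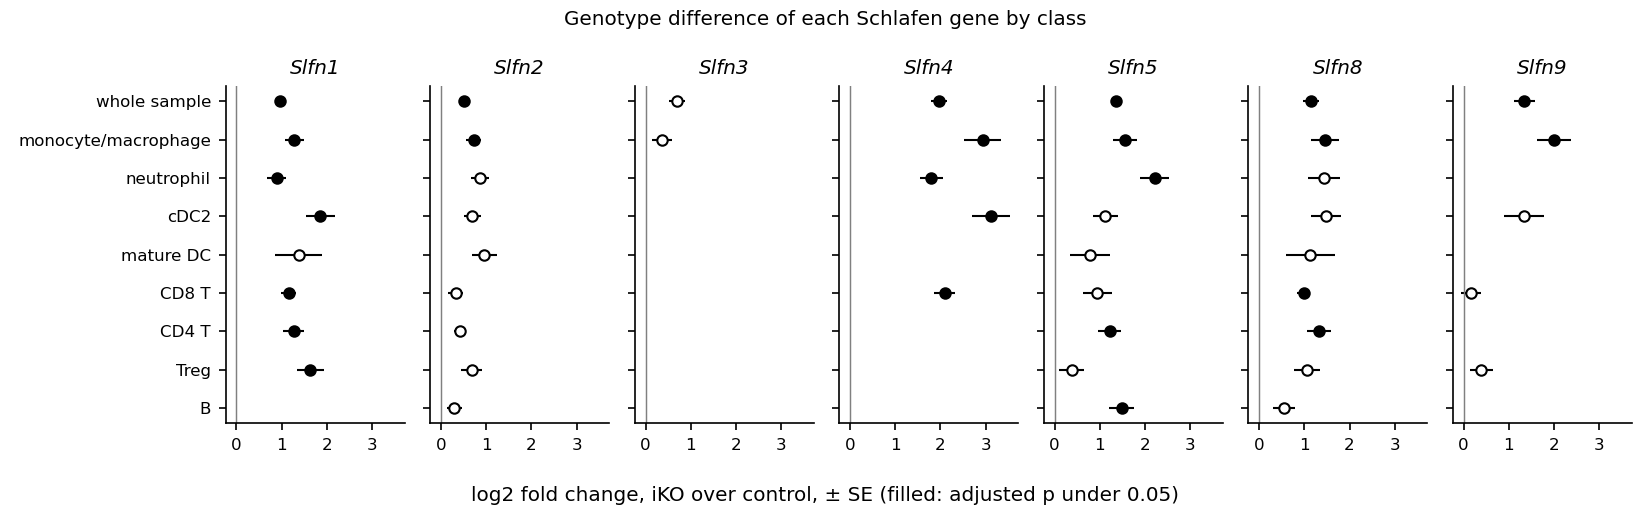
Log2 fold change, iKO over control, with its SE, for each Schlafen gene over whole samples and in each tested class, from edgeR's quasi-likelihood fit. Filled points passed at an adjusted p under 0.05, and all points lie above 0, from 0.16 for Slfn9 in CD8 T cells to 3.12 for Slfn4 in cDC2. The cDC2 controls held 16 UMIs of Slfn4 in all.

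Whether the genotype difference itself changed between classes was tested as an interaction against monocytes/macrophages within samples. Slfn9 was the member for which this passed. Its log2 fold change was lower by 1.82 in CD8 T cells (difference -1.82 ± 0.27 SE, adjusted p = 0.0420, where 0.0976% of 12296 genes were called) and in CD4 T cells (-2.05 ± 0.41, adjusted p = 0.0162, against 0.542%). Slfn9 in CD4 T cells was at 25.7, 14.3, 12.1 and 9.96 CPM in controls and 13.5, 21.7, 15.2 and 9.14 CPM in iKO samples, with overlapping groups. These levels rest on 40 control and 22 iKO UMIs, too few to pass the filter on low counts in CD4 T cells alone. Slfn9 entered the CD4 T interaction fit through its monocyte/macrophage counts. The adjusted p in CD8 T cells was from 0.0169 without iKO 4 to 0.205 without control 2, and of the 8 fits without 1 sample it passed in that without iKO 4. It was 0.127 without iKO 1, 0.175 without iKO 2, 0.0515 without iKO 3, 0.0743 without control 1, 0.154 without control 3 and 0.116 without control 4. In CD4 T cells it was lost without iKO 1 (0.0843), iKO 2 (0.0795) or control 1 (0.0821). With thinned cells neither passed (0.101 and 0.0761). Between 9.49 and 9.65% of the 90-base stretches in the last 500 bases of Slfn8 and Slfn9 transcripts also occur in another family transcript. Over whole transcripts the most were shared with Slfn10-ps. Slfn10-ps is not among the counted genes, so where reads of these stretches were counted cannot be told from the counts. The part of this in the Slfn9 result was not tested.

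For the other members, and for Slfn9 in the other classes, no interaction passed, where the share of genes called was 0.0672% in neutrophils, 0.0574% in cDC2, 0.225% in mature dendritic cells, 0.678% in Treg and 0.822% in B cells. Slfn5 in Treg was closest (-1.11 ± 0.25, adjusted p = 0.0538), and it passed with thinned cells (-1.51, 0.0207) and without control 3 (-1.45, 0.00638). Slfn4 in CD4 T cells was at -2.15 (adjusted p = 0.0922) and passed without iKO 3 (-2.40, 0.0473) or control 2 (-2.57, 0.0218). It had 17 UMIs in the CD4 T cells of each genotype and did not pass the filter on low counts there. Its place in this fit came from its monocyte/macrophage counts, so these values say little about CD4 T cells. Slfn4 in neutrophils was at -1.10 (adjusted p = 0.439) and passed without iKO 3 (-1.65, 0.0218). Slfn9 in Treg passed without iKO 3 (-1.77, 0.0342). Slfn1 was within 0.01 of its monocyte/macrophage difference in CD4 T cells (-0.01, SE 0.17) and at -0.11 (SE 0.34) in CD8 T cells.

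The members were set beside genes of the pathways around them in the whole-sample fit, where the median log2 fold change of all genes was -0.01. Of 19 effectors that act on RNA or translation under interferon, 15 were higher in iKO and 0 lower, with a median of 1.78. Ifit3, which binds foreign RNA with its partners, rose by 2.26 (adjusted p = 0.0285), while Zc3hav1, a sensor of CpG-rich RNA (0.35, adjusted p = 0.179), and Rsad2, the enzyme viperin (1.48, adjusted p = 0.0896), did not pass. Of 14 genes of the interferon receptors and their signalling, 4 were higher and 0 lower (median 0.33): Irf7, which drives interferon genes, rose by 2.73 (adjusted p = 0.000739), while the receptor chain Ifngr1 (-0.29, adjusted p = 0.259) and the kinase Jak1 (-0.07, adjusted p = 0.734) did not pass. Slfn4, at 1.97, was above the median of the effectors, Slfn5, at 1.35, was below it, and both were below Irf7.

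Of 11 genes of lymphocyte quiescence other than Schlafen genes, 0 were higher and 1 lower over whole samples, with a median of -0.38. Of all 13460 tested genes, 117 were called lower there. The lower one of the list was Btg1, an antiproliferative factor, at -0.60 (adjusted p = 0.0347), and Klf2 (-0.47, adjusted p = 0.387) and Btg2 (-0.29, adjusted p = 0.407) did not pass. Within lymphocyte classes the median of this list was -0.12 in CD8 T cells, 0.04 in CD4 T cells, -0.23 in Treg and -0.09 in B cells. In CD4 T cells 1 gene of it was called lower, and 0 in each of the other lymphocyte classes. Of the 10 genes that flank the cluster, 5 were tested and 0 were called, with a median of -0.12. Among them the DNA repair gene Rad51d was at -0.18 (adjusted p = 0.556), the ribosome assembly gene Nle1 at -0.12 (0.630) and the clathrin adaptor gene Ap2b1 at -0.06 (0.682). With 1.72% of all genes called higher, 0 of 5 is no result about these neighbours.

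Genes with the most similar pattern were ranked by Pearson correlation of log2(CPM + 1) over 79 class profiles of the 8 samples, which share libraries and depth, so r is a description. Slfn1 was most like Ifit3b (r = 0.841), Rtp4 (0.840) and Ifit1 (0.795), and Slfn2 like Rtp4 (0.831), Slfn1 (0.786) and Casp4 (0.782). Slfn5 was most like Ifitm3 (0.843), Oasl2 (0.838) and Ifi204 (0.829), and Slfn8 like Gm20559 (0.804), Ifi206 (0.756) and Lgals9 (0.752). The neighbours of Slfn4 were Gm13822 (0.845), Cd177 (0.831) and Bmx (0.823). Slfn9 was most like Gbp7 (0.766), Ms4a6b (0.707) and Ifi47 (0.682), and Slfn3 like Nmi (0.677), Ms4a6b (0.667) and Magoh (0.660). Within the family the closest pair was Slfn1 and Slfn2 (0.786), followed by Slfn1 and Slfn4 (0.702) and by Slfn2 and Slfn5 (0.698), and the least alike were Slfn3 and Slfn4 (-0.16).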

How the data were processed

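Single-cell 3′ counts of CD45+ cells from 8 hashtagged samples, 4 per genotype, were used. The deposited values are raw UMI counts per gene and cell, made by the authors with Cell Ranger 7.1.0 on GRCm39, per the submitters' processing notes. The members and gene lists were chosen with earlier results of these data known, and the limits of the marker gates were set after seeing markers and clusters but not Schlafen values. Of 23731 barcodes, 1241 were removed (fewer than 300 genes or over 10% mitochondrial counts) and 439 as doublets (Scrublet score over 0.25, in scanpy 1.11.5), which left 22051. No barcode was shared within a pool, and 45 were shared between pools. Classes came from marker gates, and 95.1% of gated cells had the same class by cluster (Leiden, leidenalg 0.10.2). UMIs were summed per sample and class where it had at least 20 cells, with at least 3 samples per genotype for a test. Deposited totals were 19370674 to 96457227 UMIs per iKO sample and 17111065 to 33319752 per control, so counting error is largest for Slfn3 and Slfn9 and for rare classes. Limits from a count of 0 use 3 counts and cover counting error only.

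Genotypes were compared with edgeR 4.0.16 (R 4.3.3), by the quasi-likelihood test with TMM scaling and filterByExpr, adjusted by Benjamini-Hochberg over all genes of a profile at a threshold of 0.05. Members with separate groups were counted on CPM of the profile total, while the shares of all genes with separate groups used TMM-scaled CPM. Classes and subsets were compared within samples by exact two-sided sign-flip permutation on log2(CPM + 1). The alternatives were DESeq2 1.42.0, no TMM, no filter on low counts, all barcodes, cells thinned to 2000 UMIs, classes by cluster, the replicate number as a block, and leaving out each sample. The named genes were all 7 members, the 3 genes of each list with the highest mean level, and for each member the 3 genes most correlated with it. The scripts were tested on simulated data. Deviations of same-numbered samples from their group means correlated by 0.50, 0.24, 0.15 and 0.53, all over 0.1, but some differently numbered samples correlated more (iKO 2 with control 1 by 0.58, iKO 3 with control 4 by 0.35), and no label states a pairing. Motifs were searched in RefSeq promoters of GRCm38.p6, another build than that of the counts. Slfn10-ps is not among the counted genes and could not be analysed here.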

Additional observations from a re-analysis of the deposited data

Results flagged for a closer look

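In 7 of 126 sample groups examined, 1 sample stood far from the other 3 of its genotype and class, and chance alone gives about 1 in 20. Slfn9 in monocytes/macrophages was at 6.14 CPM in control 4 and at 9.91 to 10.1 CPM in the other controls. Slfn1 in Treg was at 83.9 CPM in control 1 against 40.0 to 44.4 CPM, and Slfn3 in Treg at 7.40 CPM in the same sample against 2.96 to 3.70 CPM. Slfn9 in mature dendritic cells was at 9.32 CPM in control 1 against 0 to 1.17 CPM. Slfn3 in CD4 T cells was at 19.0 CPM in iKO 3, a sample of 36 such cells, against 2.29 to 2.70 CPM. Slfn3 had 1.21 CPM in neutrophils of iKO 2 and 2.25 CPM in B cells of control 3, with 0 in the other samples of these groups.

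The genotype difference of Slfn9 was smaller than in monocytes/macrophages in CD8 T cells (difference of log2 fold changes -1.82, edgeR adjusted p = 0.0420) and in CD4 T cells (-2.05, adjusted p = 0.0162), by a test of the difference itself. In CD4 T cells alone Slfn9 was too sparse to pass the filter on low counts.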

How the results depend on the processing

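For gene and class pairs tested in the main analysis, no direction changed under any alternative run. Apart from single left-out samples, 412 of 459 recomputed values kept direction and side of the threshold, 10 fell below it, 34 passed it and 3 turned. Counts of called members that moved by over 1.5 times are given first. With DESeq2 they were 5 in neutrophils (3 in the main analysis), 4 in cDC2 (2), 2 in Treg (1), 1 in C1q macrophages (0) and 1 in cycling CD8 T cells (2). With no filter on low counts they were 5 in cDC2, 5 in mature dendritic cells (0), 3 in Treg, 2 in B cells (1) and 5 in Tcf7+ CD8 T cells (3). With the replicate block they were 5 in neutrophils, 4 in cDC2, 5 in CD8 T cells (3) and 2 in Treg, and the block moved no other count by over 1.5 times. With thinned cells they were 1 in cDC2, 1 in CD8 T cells, 2 in Treg, 1 in Pdcd1+ Tcf7- cells (2), 0 in cycling (2) and 1 in non-cycling CD8 T cells (4), where fewer UMIs were counted. With classes by cluster they were 4 in cDC2 and 2 in Treg. Smaller moves over whole samples and in classes were from 6 to 7 over whole samples with DESeq2 and with thinned cells, from 3 to 2 in neutrophils without TMM and by cluster and to 4 with all barcodes, from 3 to 4 in CD8 T cells with DESeq2 and with all barcodes, and from 3 to 2 in CD4 T cells with thinned cells. Members whose difference departed from monocytes/macrophages were 0 in CD8 T cells (1) with thinned cells and with classes by cluster, 0 in CD4 T cells (1) with thinned cells and 1 in Treg (0) with thinned cells.

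Without 1 sample at a time, called members ranged from 3 to 6 over whole samples, 4 to 6 in monocytes/macrophages, 2 to 3 in neutrophils, 1 to 3 in cDC2, 0 to 1 in mature dendritic cells, 0 to 3 in Treg, 0 to 4 in Tcf7+, 2 to 3 in Pdcd1+ Tcf7-, 1 to 3 in cycling and 0 to 4 in non-cycling CD8 T cells. Members departing from monocytes/macrophages ranged from 0 to 1 in neutrophils, CD8 T cells and Treg and from 0 to 2 in CD4 T cells. Slfn4 and Slfn9 were too sparse in CD4 T cells to be tested in that class alone. Slfn9 in Pdcd1+ Tcf7- cells (0.02) turned to -0.049 with DESeq2, -0.033 without TMM and -0.053 with the replicate block, and ranged from -0.13 to 0.18 without single samples. Slfn9 in cycling cells (-0.13) ranged from -0.28 to 0.071. The cause was not tested. Over all genes of monocytes/macrophages, 649 were higher and 557 lower, against 1004 and 434 without TMM. All-gene calls there were 1206, from 343 to 1519 without single samples, and over whole samples 348, from 110 to 490. Slfn3 and Slfn9 in rare classes are limited by depth.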
